A study of Mus musculus with 6 samples.

Results

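Expression of 10 cytokine genes whose products stressed epithelium can release was followed in tumor organoids treated with chemotherapy. They are Tnf, Il1a, Il1b, Il6, Il18, Il23a, Il33, Csf1, Csf2 and Lif, and they were picked by name, with earlier results of these data known. All 10 were among the 24190 genes of the count table. The organoids were MTO54, a mouse tumor organoid (MTO) line derived from a mouse model of colorectal cancer and grown from single cells in basement membrane extract. Both groups came from this line and shared its genotype. The 3 control samples received complete stem cell medium, and the 3 treated samples received the same medium with Folfiri, that is 50 μg/μl of 5FU, in the unit the labels use, with 100 nM of SN38, the active metabolite of irinotecan, from 2 days after seeding and for 2 days. The 5FU unit may be a slip for a lower concentration, so that this dose is uncertain. The study's figure legend gives a longer treatment than its methods and the labels do. One line was studied, so the replicates share one tumor genotype.

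Cytokines are secreted proteins through which epithelium signals to immune cells, fibroblasts and itself. TNF and the interleukin-1 proteins start inflammatory signaling in neighboring cells, and their genes are classical targets of the transcription factor NF-kB. Alarmins such as IL-1 alpha and IL-33 are kept inside the cell and are let out when it is damaged or dies. In the intestine, IL-18, IL-23 and IL-33 are known for their roles in barrier defense and colitis, whereas CSF1, GM-CSF (encoded by Csf2) and LIF act on macrophages, granulocytes and stem cells.

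The libraries held between 22103591 and 30098210 counts on genes. Levels are given as CPM (counts scaled to a common library size) with TMM factors of 0.880 to 0.966 for controls and 1.10 to 1.11 for treated libraries. Control replicate 1 differed more from control replicates 2 and 3 than these did from each other (chi-square per degree of freedom of 23.7 and 22.4 against 3.84), and Folfiri replicate 3 differed more from Folfiri replicates 1 and 2 (12.3 and 11.9 against 3.55). The epithelial markers were present in every library, at 5731 to 6638 CPM in sum in controls and 4647 to 4818 CPM after Folfiri. Of these 8 markers 4 fell and 1 rose, beside 38.8% and 40.3% of all genes tested. Cdx2, an intestinal transcription factor, fell from 157 ± 6.88 to 54.5 ± 0.753 CPM (SD, n = 3 each, -1.53 on the log2 scale), Epcam by 0.94, Krt19 by 0.62 and Krt8 by 0.27. The call of Krt8 was lost with scaling by total counts only (0.00) and in 3 of the 6 fits without 1 library. Krt18, at 1284 ± 140 CPM in controls and 1136 ± 47.8 CPM after Folfiri, was not called, and neither were Krt20 and Vil1. The marker that rose, Cdh1 at 0.21 on the log2 scale (named, like Cdx2 and Epcam, after its values were seen), was not called with no filter or in 4 of the 6 fits without 1 library.

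The cytokine genes that could be tested were higher after Folfiri. Of the 10, 6 reached the expression cutoff in all 6 libraries, and each of these 6 rose (adjusted p under 0.05 in edgeR's quasi-likelihood test). Among all 13043 genes that reached the cutoff in every library, 38.5% rose. The median log2 fold change of the 6 was 2.36, against -0.03 for those 13043 genes. Il18 and Csf2 were tested because their Folfiri libraries alone reached the cutoff, so that their call was favored by the filter. They were called higher as well, which makes 8 of 8, beside 40.3% of the 14692 genes tested. None of the 8 was called lower, beside 38.8% of the genes tested. Il6 and Il1b were too low to be tested. In each of the 8 every Folfiri library lay above every control library in CPM, as in 41.6% of the genes tested. The same order was seen for Il6 and Il1b, which are not among the genes of that share. Il1b had at most 3 counts in any library, so its order rests on single reads and shows no difference. In bulk RNA, more transcripts in each cell and more cells that make the transcript cannot be told apart.

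**Figure D1:**
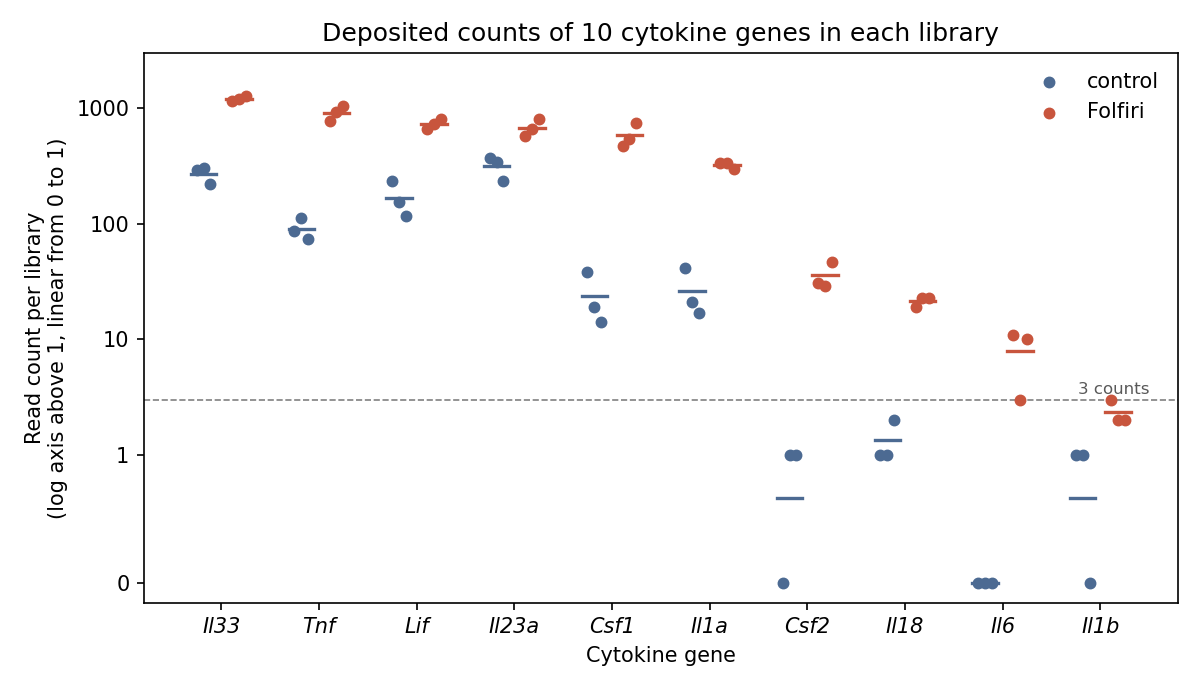
Deposited read counts of the 10 cytokine genes in each library, on an axis that is logarithmic above 1 and linear from 0 to 1. Points are libraries (blue, control; red, Folfiri), short lines are group means of 3 libraries, and the dashed line marks 3 counts. Il1b stays at or below 3 counts in every library, and Csf2, Il18 and Il6 do so in the controls.

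A count of 0 in 1 library allows up to 3 counts, a floor that corresponded to between 0.091 and 0.154 CPM, and this covers counting error only. Il1b did not exceed 3 counts in any library and was at the floor throughout. In the controls, 4 of the 10 genes were at the floor, namely Il1b, Il6, Il18 and Csf2. Il6 stayed close to it after treatment as well, with 11 counts in its highest library.

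Because most of these genes moved together, the sequence before their starts was read from RefSeq on GRCm38.p6. A start was listed for 9 of the 10 genes, all but Il23a. The 250 bases before each start were searched on both strands for a kB motif (GGGNNNNNCC), an AP-1 motif (TGANTCA), a CRE motif (TGACGTCA) and a TATA motif (TATAAA). The kB motif was found in 4 of the 9 genes, those of Csf1, Il6, Lif and Tnf, and in 45.8% of all 32851 RefSeq windows of the same length. The AP-1 motif was found in Il1a, Il6 and Lif, and in 6.75% of all windows. The TATA motif was found in 5 of the 9 and in 12.4% of all windows, and the CRE motif in 0 of the 9 and in 1.55% of all windows. The RefSeq starts of Csf2 and Il18 lie 232 and 127 bases before the GENCODE start of the gene, so their windows differ from those that the GENCODE annotation would give. The RefSeq start of Lif lies just after its GENCODE start, so the last bases of its window belong to the GENCODE gene. Il33 had 2 RefSeq starts, 1 of them far inside the GENCODE gene, and thus 2 windows, so that the 9 genes had 10 windows. Its count rests on either window, whereas the shares over all windows are per single window, and both Il33 windows hold the TATA motif. The windows of the 5 genes with a kB or AP-1 motif are printed 5′ to 3′ on the strand of the gene and end at the base before the start. Capitals mark kB and AP-1 matches, which overlap one another at some sites, on either strand.
Csf1, chr3:107760470-107760719, minus strand: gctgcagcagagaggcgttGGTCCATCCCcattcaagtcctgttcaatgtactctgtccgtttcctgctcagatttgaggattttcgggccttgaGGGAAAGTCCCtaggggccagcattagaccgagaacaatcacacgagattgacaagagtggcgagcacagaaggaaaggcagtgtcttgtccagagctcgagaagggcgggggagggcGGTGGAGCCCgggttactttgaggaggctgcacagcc
Il6, chr5:30012864-30013113, plus strand: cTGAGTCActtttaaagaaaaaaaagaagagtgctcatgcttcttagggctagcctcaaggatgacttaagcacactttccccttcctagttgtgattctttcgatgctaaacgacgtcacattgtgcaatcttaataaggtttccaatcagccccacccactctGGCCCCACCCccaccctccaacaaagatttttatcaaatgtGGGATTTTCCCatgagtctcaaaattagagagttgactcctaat
Lif, chr11:4257318-4257567, plus strand: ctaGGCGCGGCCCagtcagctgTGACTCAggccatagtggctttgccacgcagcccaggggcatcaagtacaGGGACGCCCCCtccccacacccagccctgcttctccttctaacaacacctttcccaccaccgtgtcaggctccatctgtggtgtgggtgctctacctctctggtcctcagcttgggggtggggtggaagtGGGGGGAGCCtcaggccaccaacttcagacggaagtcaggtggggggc
Tnf, chr17:35202008-35202257, minus strand: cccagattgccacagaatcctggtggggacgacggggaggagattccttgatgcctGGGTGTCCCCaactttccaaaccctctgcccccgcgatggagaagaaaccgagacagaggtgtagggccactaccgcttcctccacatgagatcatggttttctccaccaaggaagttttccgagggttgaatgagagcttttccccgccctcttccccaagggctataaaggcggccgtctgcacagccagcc
Il1a, chr2:129309973-129310222, minus strand: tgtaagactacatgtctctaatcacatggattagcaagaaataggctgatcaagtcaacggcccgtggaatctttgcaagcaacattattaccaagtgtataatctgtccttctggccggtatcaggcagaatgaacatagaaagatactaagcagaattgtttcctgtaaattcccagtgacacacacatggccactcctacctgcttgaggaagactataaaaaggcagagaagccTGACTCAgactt
The Csf1 window holds 4 kB matches, of which 2 overlap and begin 155 and 154 bases before the start. The Il6 window holds 3, of which 2 overlap and begin 44 and 43 bases before the start, and the Lif window holds 4. The Tnf window holds 1 kB match, which begins 194 bases before the start. The AP-1 match of Il1a lies next to the start, beginning 12 bases before it.

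Tnf (ENSMUSG00000024401) lies on chromosome 17 of GRCm38 from 35199381 to 35202007, on the minus strand. It encodes tumor necrosis factor, which is made as a membrane protein and cut free by the protease ADAM17. Its counts were 86, 112 and 74 in untreated organoids (replicates 1, 2 and 3, the order used throughout), against 773, 928 and 1042 with the drugs. The lowest treated library was thus far above the highest control, and the treated libraries differed among themselves by less than this gap. The level rose from 3.79 ± 0.691 to 29.2 ± 2.93 CPM (SD, n = 3 each), or 2.95 ± 0.14 (SE) in log2 terms, with an edgeR adjusted p = 3.28e-08.

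Il1a (ENSMUSG00000027399), on chromosome 2 from 129299610 to 129309972, encodes IL-1 alpha, an alarmin that is active without cleavage by an inflammasome. It had 41, 21 and 17 counts in untreated organoids, against 336, 335 and 298 with the drugs. Control replicate 1 was the highest of the controls, yet well below each treated library. The level rose from 1.06 ± 0.358 to 10.4 ± 1.18 CPM (SD, n = 3 each), or 3.25 ± 0.21 (SE) in log2 terms, with an edgeR adjusted p = 1.81e-07. Exons of Il1a share 222 bases with Gm14023, a noncoding transcript on the opposite strand, which had between 1 and 19 counts in any library and was highest in control replicate 1.

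Il1b (ENSMUSG00000027398) lies next to Il1a on chromosome 2, from 129364570 to 129371139, and encodes IL-1 beta, whose precursor is cut by caspase-1. It had 1, 1 and 0 counts in untreated organoids, against 3, 2 and 2 with the drugs. Over each group these were 2 and 7 counts, a ratio of 2.7 in scaled counts with a 95% counting interval from 0.513 to 26.6, which includes a ratio of 1. A difference in Il1b was therefore not detectable at this depth. Exons of Il1b share 25 bases with Il1bos on the opposite strand, which had 1 to 6 counts per library.

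Il33 (ENSMUSG00000024810), on chromosome 19 from 29925114 to 29960718, encodes a nuclear alarmin of the IL-1 family. Its counts were 293, 301 and 221 in untreated organoids, against 1162, 1198 and 1272 with the drugs. The treated libraries were nearly identical once scaled, at 38.7 ± 0.198 CPM (SD, n = 3) against 11.3 ± 0.744 CPM in controls, or 1.78 ± 0.09 (SE) in log2 terms, with an edgeR adjusted p = 3.20e-08.

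Il18 (ENSMUSG00000039217), on chromosome 9 from 50554827 to 50581840, encodes an IL-1 family cytokine that intestinal epithelium normally makes and that caspase-1 activates. In these organoids it had 1, 1 and 2 counts in untreated organoids, against 19, 23 and 23 with the drugs. No library of one group came near the other group, although all of these counts are low. The level went from 0.0596 ± 0.0375 to 0.692 ± 0.0528 CPM (SD, n = 3 each), or 3.54 ± 0.43 (SE) in log2 terms, with an edgeR adjusted p = 2.34e-05. In summed counts the ratio was 12.5, with a 95% counting interval from 4.66 to 47.3.

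Il6 (ENSMUSG00000025746), on chromosome 5 from 30013114 to 30019981, encodes interleukin-6, which signals through the receptor subunit gp130. It had 0 counts in each control and 11, 3 and 10 counts after Folfiri. Folfiri replicate 2 was thus at the floor of 3 counts. Summed over each group, Il6 after Folfiri stood 6.16-fold above a floor of 3 counts over the 3 controls. The counting error of the 24 treated counts is not in that value, and the lower 95% counting limit of the ratio was 4.64. With no expression filter edgeR called it higher (adjusted p = 0.00024), a fit in which 27.2% of all 24190 genes were called higher, and DESeq2 did so too (adjusted p = 0.00229).

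Lif (ENSMUSG00000034394), on chromosome 11 from 4257557 to 4272514, encodes leukemia inhibitory factor, an IL-6 family cytokine that also uses gp130. It was already present in the controls, with 234, 153 and 117 counts, and had 663, 722 and 798 counts after Folfiri. Control replicate 1 was the highest control. The level rose from 6.85 ± 1.36 to 23.3 ± 0.991 CPM (SD, n = 3 each), or 1.75 ± 0.13 (SE) in log2 terms, with an edgeR adjusted p = 6.42e-07.

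Il23a (ENSMUSG00000025383), on chromosome 10 from 128296139 to 128298752, encodes the p19 subunit of IL-23. It had 370, 345 and 233 counts in untreated organoids, against 577, 654 and 807 with the drugs, the smallest fold among the tested members. The level rose from 13.0 ± 0.942 to 21.7 ± 2.61 CPM (SD, n = 3 each), or 0.73 ± 0.11 (SE) in log2 terms, with an edgeR adjusted p = 0.000125. Of all genes tested, 25.9% had a larger log2 fold change than Il23a, against 8.37% for Lif and 2.68% for Tnf. Il12b, which encodes the p40 partner that IL-23 needs, had 1 count in Folfiri replicate 2 and 0 counts in the other libraries.

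Csf1 (ENSMUSG00000014599), on chromosome 3 from 107741048 to 107760469, encodes the macrophage growth factor CSF1. It had 38, 19 and 14 counts in untreated organoids, against 472, 543 and 737 with the drugs. Control replicate 1 was the highest control and Folfiri replicate 3 the highest treated library. The level rose from 0.949 ± 0.363 to 18.6 ± 3.39 CPM (SD, n = 3 each), or 4.25 ± 0.23 (SE) in log2 terms, with an edgeR adjusted p = 6.12e-08. Only 1.07% of the genes tested had a larger one. Without control replicate 1 the log2 fold change was 4.64.

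Csf2 (ENSMUSG00000018916), on chromosome 11 from 54247271 to 54249667, encodes GM-CSF. It had 0, 1 and 1 counts in untreated organoids, against 31, 29 and 47 with the drugs, so that it went from the floor to a measurable level. Its level after Folfiri was 1.13 ± 0.258 CPM (SD, n = 3). The ratio in summed counts was 41.2, with a 95% counting interval from 11.1 to 345. The fitted log2 fold change was 5.15 ± 0.54 (SE, edgeR adjusted p = 6.78e-06), and it was 4.53 without control replicate 1, whose count was 0. Exons of Csf2 share 96 bases with Gm12223 on the opposite strand, a gene that the count table does not list.

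The size of the rise differed among the members. The 95% intervals of the log2 fold changes formed 3 steps that did not overlap. Csf2, Csf1, Il18, Il1a and Tnf had intervals that began at 2.58 or above. Those of Il33 and Lif lay between 1.46 and 2.05, and that of Il23a lay between 0.48 and 0.98. Il18 and Csf2, with controls at the floor, reached the cutoff in the Folfiri libraries only, so the filter favored their place in the upper step. Without them this step began at 2.63, the lower limit of Tnf. Within the upper step, Csf1 (from 3.74 to 4.75) lay above Tnf (from 2.63 to 3.26), whereas Csf1 and Il1a (from 2.80 to 3.70) were set apart by a narrow margin. Il33 and Lif were indistinguishable, with intervals from 1.59 to 1.97 and from 1.46 to 2.05.

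**Figure D2:**
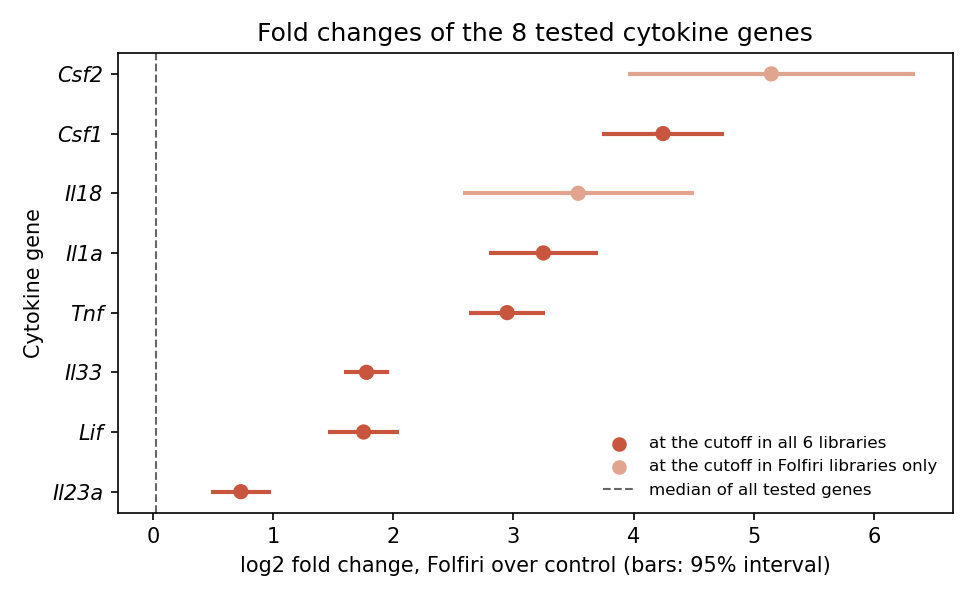
Log2 fold changes (Folfiri over control, horizontal axis) of the 8 cytokine genes tested by edgeR, with 95% intervals as bars. Pale points are genes that reached the expression cutoff in the Folfiri libraries only, and the dashed line is the median of all tested genes, at 0.02. All 8 intervals lie to the right of it, from Il23a at 0.73 to Csf2 at 5.15.

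To compare levels between genes, CPM was divided by the exonic length in kilobases. On this scale the 10 genes summed to 14.4 ± 0.707 CPM per kb in untreated and 57.2 ± 3.35 CPM per kb in treated organoids (SD, n = 3 each), 3.96 times as much. In controls Il23a was the highest, at 5.80 ± 0.419 CPM per kb, followed by Il33 at 3.92 ± 0.258, Tnf at 2.32 ± 0.422 and Lif at 1.58 ± 0.313. The libraries of Tnf and Lif overlapped, and those of the 4 lowest genes, Il18, Csf2, Il1b and Il6, could not be put in order. After Folfiri Tnf came first, at 17.8 ± 1.79 CPM per kb, followed by Il33 at 13.4 ± 0.0685 and Il23a at 9.63 ± 1.16. Lif at 5.34 ± 0.228 and Il1a at 5.26 ± 0.596 CPM per kb did not differ beyond their spread, and neither did Il6 and Il1b at the lower end.

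The make-up of the group changed accordingly. Il23a made up 40.1% ± 1.12 of the length-scaled sum without the drugs and 16.8% ± 1.06 with them (SD, n = 3 each). Tnf went from 16.0% ± 2.62 to 31.1% ± 1.47 and Csf1 from 1.25% ± 0.473 to 6.12% ± 0.765. The share of Il33 was 27.2% ± 1.76 without and 23.5% ± 1.49 with the drugs, each control lying above each treated library, by a narrow margin (25.3% for the lowest control and 25.1% for the highest treated). For Lif the shares were 10.9% ± 2.17 and 9.35% ± 0.149, and the groups overlapped. The ratio of Tnf to Il23a was 0.319 to 0.445 in untreated and 1.77 to 1.95 in treated libraries (p = 0.1 by a two-sided exact permutation test, which cannot go lower with 3 libraries against 3). This ratio was picked after the values had been seen.

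**Figure D3:**
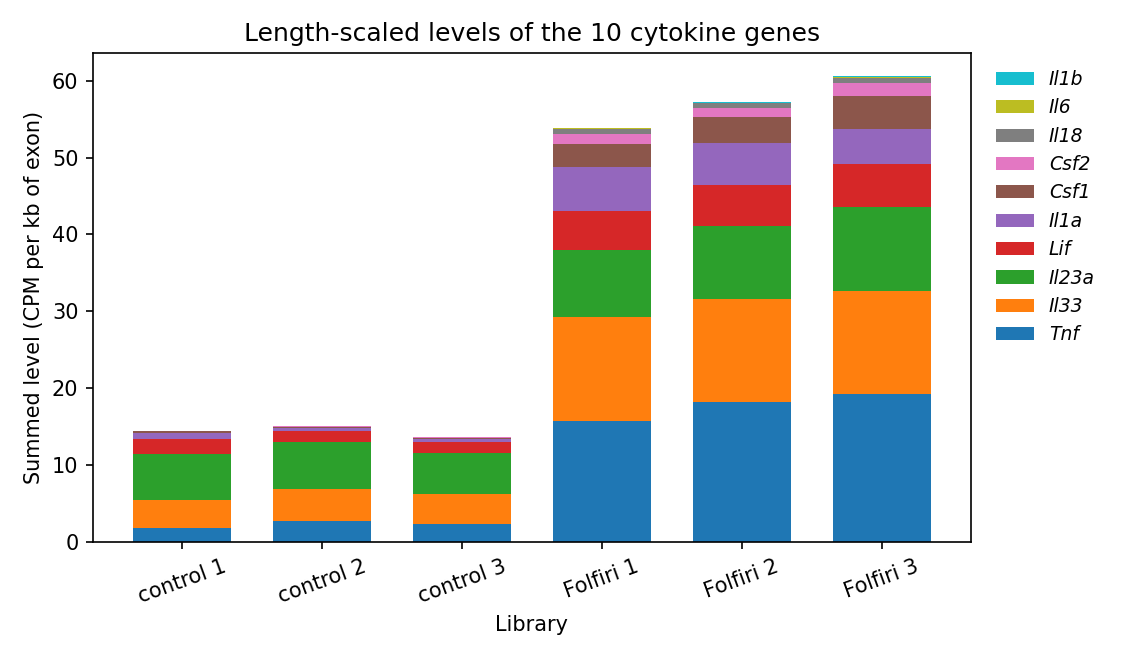
Length-scaled levels of the 10 cytokine genes (CPM per kb of exon) stacked for each library. The sum stands at 13.7 to 15.1 in the 3 control libraries and at 53.9 to 60.6 in the 3 Folfiri libraries, with Il23a the largest part in controls and Tnf the largest after Folfiri.

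Receptors for some of these cytokines were expressed by the organoids and those for others had few or no counts. Of 16 receptor genes 10 were tested, and 8 rose while none fell, beside 40.3% and 38.8% of all genes tested. Counting only the 9 that reached the cutoff in every library, 7 rose, beside 38.5% of such genes. The median log2 fold change of the 10 was 0.74, against 0.02 for all genes tested. Among TNF receptors, Tnfrsf1b rose from 47.2 ± 6.48 to 77.6 ± 0.743 CPM (log2 fold change 0.72), whereas Tnfrsf1a, at 93.6 ± 2.53 and 98.0 ± 2.21 CPM, was not called (SD, n = 3 each). With scaling by total counts only, Tnfrsf1a was called higher, at 0.34.

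Il1r1, the signaling receptor for IL-1, rose from 9.32 ± 1.15 to 25.5 ± 1.99 CPM (log2 fold change 1.44), and its partner Il1rap rose by 0.76 on the log2 scale. The shared subunit Il6st, which encodes gp130, rose from 18.5 ± 3.79 to 57.3 ± 5.60 CPM (1.62), and Lifr, the LIF receptor, from 19.6 ± 1.47 to 40.3 ± 8.00 CPM (1.04). Il6ra rose by 0.27, a call that was lost with DESeq2, with no filter and in 4 of the 6 fits without 1 replicate. Csf2ra, the alpha chain of the GM-CSF receptor, rose by 0.58.

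Of the other receptors, 6 were too low to be tested. Il1rl1, the receptor for IL-33, had at most 1 count in any library. Csf1r, the receptor for CSF1, had 0 counts in each control and 2, 3 and 3 counts after Folfiri. Csf1r shares 873 exonic bases with the protein-coding Hmgxb3 on the opposite strand, and since the strand setting is unknown its low count does not show that it was absent. Il23r had 0 counts in each control and 3 counts in each Folfiri library. With no filter edgeR called Csf1r and Il23r higher (adjusted p = 0.0305 and 0.0207), which DESeq2 did not (0.121 and 0.0872). Il12rb1, the partner of Il23r, was tested and not called, at 0.743 ± 0.0879 and 0.602 ± 0.13 CPM. Csf2rb and Csf2rb2, near-identical copies whose reads the counting could have split, had at most 5 and 3 counts. For the IL-18 receptor, Il18r1 had 2, 1 and 0 counts in the controls and 10, 7 and 10 with Folfiri, a ratio of 6.93 with a 95% counting interval from 2.13 to 35.7. It was called higher with no filter (adjusted p = 0.00246) and with DESeq2 (adjusted p = 0.0241). Il18rap had 3, 3 and 5 counts in untreated organoids, against 124, 152 and 133 with the drugs, or 4.80 ± 0.28 (SE) in log2 terms, with an edgeR adjusted p = 1.12e-07. Il18rap reached the cutoff in the Folfiri libraries only.

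Among genes that restrain IL-1, Il1rn rose. Il1rn, which encodes the IL-1 receptor antagonist, had 1558, 1441 and 1014 counts in untreated organoids, against 6824, 7289 and 7553 with the drugs, and rose from 55.3 ± 2.83 to 231 ± 3.61 CPM (SD, n = 3 each), or 2.06 ± 0.07 (SE) in log2 terms, with an edgeR adjusted p = 4.48e-09. Per exonic length it stood above Il1a in every library. The ratio of Il1rn to Il1a on that scale was 19.8 ± 5.61 without the drugs and 8.01 ± 0.925 with them (SD, n = 3 each), and each control ratio was above each treated one (p = 0.1 by the same exact permutation test). This ratio too was picked after the values had been seen. Il1r2, a decoy receptor that binds IL-1 without signaling, went from 0.303 ± 0.0603 to 2.00 ± 0.197 CPM (log2 fold change 2.70) and was called, but it reached the cutoff in the Folfiri libraries only, as did Il36rn.

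Il36rn, named Il1f5 in the annotation, encodes the antagonist of IL-36 and had 2, 0 and 0 counts in untreated organoids, against 45, 47 and 46 with the drugs, a ratio of 53.1 with a 95% counting interval from 14.4 to 443. Sigirr, an inhibitory receptor of the IL-1 family, fell from 64.7 ± 5.54 to 50.5 ± 1.35 CPM, a log2 fold change of -0.36, a call that was lost with scaling by total counts only, at -0.09. Il18bp, which binds IL-18, was not called, at 1.59 ± 0.259 and 1.88 ± 0.216 CPM, and was called higher with scaling by total counts only, at 0.53. Il1f10 had at most 1 count. Of the 6 genes in this list 5 were tested, with 3 higher and 1 lower, beside 40.3% and 38.8% of all genes tested. Of these, 3 reached the cutoff in every library, 1 of them higher, beside 38.5% of such genes, and 1 lower.

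**Figure D4:**
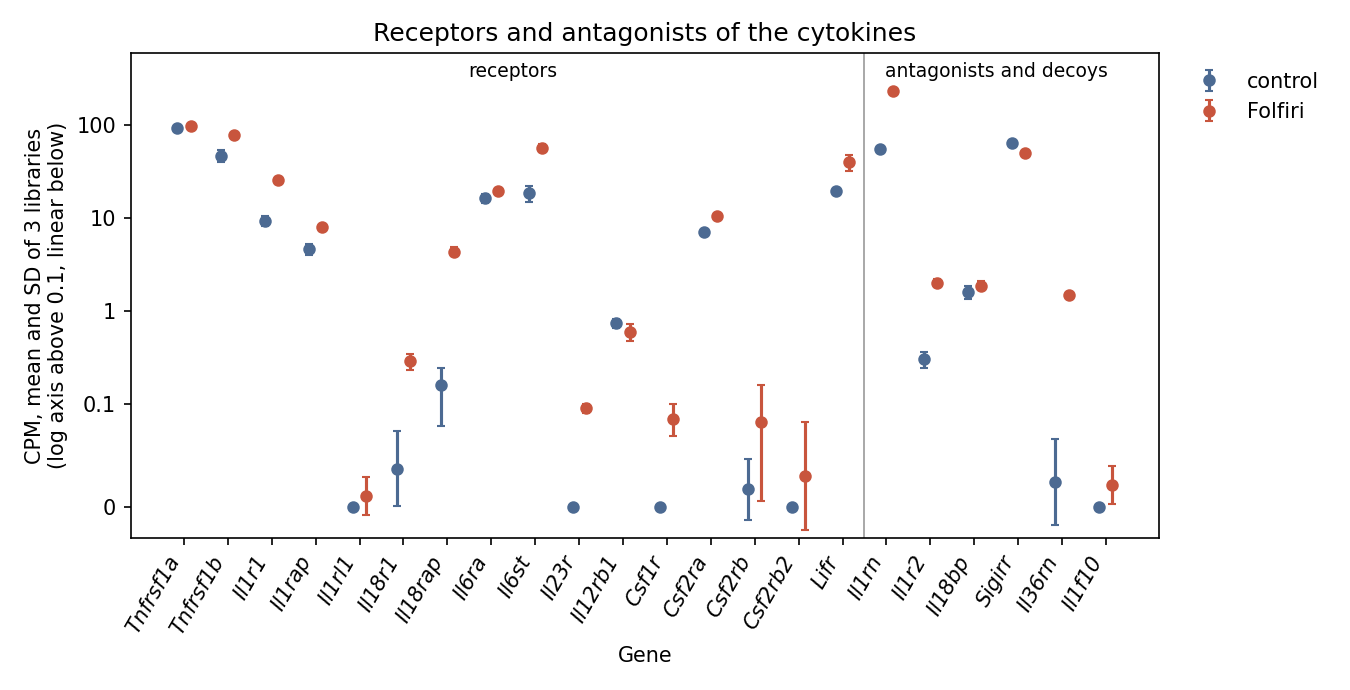
Mean CPM and SD of 3 libraries for 16 receptor genes and 6 genes of antagonists and decoys, in controls (blue) and after Folfiri (red), on an axis that is logarithmic above 0.1 and linear below. Il1rl1, Csf1r, Il23r, Csf2rb, Csf2rb2 and Il1f10 lie below 0.1 in both groups, and Il1rn stands highest after Folfiri, at 231 CPM.

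Further cytokines of the same families were mostly low. Of 19 genes 11 were tested, with 8 higher and 1 lower after Folfiri, beside 40.3% and 38.8% of all genes tested. Of the 8, 7 (Csf3, Tslp and Il36g among them) reached the cutoff in the Folfiri libraries only, so the filter favored their calls. There were 4 that reached it in every library. Of these 1 rose, beside 38.5% of such genes, 1 fell and 2 were not called. The gene that rose was Clcf1, another ligand of the gp130 family, at a log2 fold change of 1.26 (outside the rule for named genes and picked after its values were seen), and the one that fell was Ctf1, cardiotrophin 1, from 3.67 ± 0.312 to 1.16 ± 0.173 CPM (-1.66). Csf3, which encodes G-CSF, had 9, 4 and 4 counts in untreated organoids, against 93, 102 and 128 with the drugs, or 3.85 ± 0.27 (SE) in log2 terms, with an edgeR adjusted p = 3.42e-07. Tslp, an epithelial alarmin, went from 0.298 ± 0.0856 to 1.90 ± 0.429 CPM (2.63). Il36g, named Il1f9 in the annotation, had 1 count over the 3 controls and 20, 12 and 20 counts after Folfiri, a ratio of 40.1 with a 95% counting interval from 6.88 to 1610.0.

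The machinery that processes and releases these cytokines was called about as often as other genes. Of 17 genes 12 were tested, with 5 higher and 4 lower, shares near the 40.3% and 38.8% of all genes tested. Counting only the 11 that reached the cutoff in every library, 4 were higher, beside 38.5% of such genes, and 4 lower. With scaling by total counts only the whole list had 8 higher and 3 lower, beside 7322 and 4250 of the 14692 genes tested. Casp4, the caspase that senses lipopolysaccharide inside the cell, rose from 2.02 ± 0.597 to 21.0 ± 1.33 CPM (log2 fold change 3.35), and Nlrc4, an inflammasome sensor, from 6.99 ± 0.685 to 11.8 ± 0.709 CPM (0.76). Pycard, the inflammasome adaptor ASC, had 2, 1 and 0 counts in untreated organoids, against 39, 62 and 55 with the drugs, where alone it reached the cutoff, a ratio of 40.1 with a 95% counting interval from 13.5 to 196. Casp1, the caspase that activates IL-1 beta and IL-18, had at most 1 count in any library, and Nlrp3 at most 3. Both were named after their values were seen.

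Adam17, the protease that frees TNF from the cell surface, fell from 106 ± 1.46 to 50.0 ± 2.70 CPM (-1.09 ± 0.07 SE in log2 terms, edgeR adjusted p = 2.19e-07), while Tnf rose. Adam17 shares 311 exonic bases with Iah1 on the opposite strand. Casp8, which can also cut IL-1 beta, fell from 89.4 ± 8.99 to 45.8 ± 1.59 CPM (-0.96), and Capn2, a calpain subunit, from 152 ± 7.13 to 108 ± 7.26 CPM (-0.49).

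Among 11 genes that sense nucleic acids or pass their signal on, 9 were tested, all of which reached the cutoff in every library. Of these 9, 7 were higher, beside 38.5% of such genes, and 1 was lower, beside 38.8% of all genes tested. Tlr3, a receptor for double-stranded RNA, rose from 3.18 ± 0.955 to 13.3 ± 1.79 CPM (log2 fold change 2.04). Myd88, the adaptor of IL-1, IL-18, IL-33 and Toll-like receptors, rose from 12.0 ± 0.872 to 40.9 ± 3.76 CPM (1.77) and shares 290 exonic bases with Acaa1a on the opposite strand. Cgas, the sensor of DNA in the cytosol, rose from 5.98 ± 0.274 to 17.3 ± 1.77 CPM (1.53). Ifih1, a sensor of viral RNA, fell by 0.72 on the log2 scale, a call that was lost with scaling by total counts only, without control replicate 1 (-0.44) and without Folfiri replicate 2 (-0.61).

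Genes known as feedback regulators or targets of STAT3, the factor downstream of LIF and IL-6, were called about as often as other genes. Of 9 genes 7 were tested, with 3 higher and 3 lower, near the 40.3% and 38.8% of all genes tested, and their median log2 fold change was 0.03, against 0.02 for all. Osmr, the oncostatin M receptor, which reached the cutoff in the Folfiri libraries only, rose from 0.456 ± 0.0525 to 4.27 ± 0.719 CPM (3.21), Il4ra, a receptor subunit for IL-4 and IL-13, from 12.5 ± 3.65 to 66.7 ± 1.47 CPM (2.41) and Bcl3, a modulator of NF-kB, from 19.8 ± 2.63 to 36.6 ± 3.30 CPM (0.88). Socs3, the feedback inhibitor of gp130 signaling, fell from 84.7 ± 12.1 to 44.0 ± 1.17 CPM (-0.94), Pim1, a kinase gene, from 69.5 ± 18.0 to 36.0 ± 2.73 CPM (-0.95) and Junb, an AP-1 subunit, by 0.59 on the log2 scale. Stat3 itself was not called, at a log2 fold change of 0.03, and was called higher with scaling by total counts only, at 0.31 (named after its values were seen).

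Since macrophages and fibroblasts are strong producers of several of these cytokines, their markers were measured in the same libraries. The 14 immune markers summed to 23.2 to 27.5 CPM in the controls and 32.4 to 33.8 CPM with the drugs, and 5 of the 6 tested rose, beside 40.3% of all genes tested. Ptprc, Fcer1g, Adgre1 and S100a9 were tested because their Folfiri libraries alone reached the cutoff, so the filter favored their calls. Of the 2 that reached it in every library, 1 rose, beside 38.5% of such genes. The main part of that sum was Cd68, at 23.6 ± 2.53 and 20.5 ± 0.583 CPM, which was not called but was lower without control replicate 1 (-0.28). S100a8 rose from 0.913 ± 0.294 to 5.22 ± 0.706 CPM and S100a9 from 0.304 ± 0.119 to 4.37 ± 0.0533 CPM. Of the immune markers not tested, Tyrobp and Cpa3 had at most 1 count in any library. Lyz2 had at most 2, Itgam 3, and Coro1a and Laptm5 8 each. Cd79a had 3 counts in each control and 5, 10 and 8 after Folfiri, and Cd3e was not listed in the count table. Itgam shares 3450 exonic bases on its own strand with the protein-coding Gm49368, so its low count does not show that it was absent. Ptprc, the pan-leukocyte marker, stood at 0.396 ± 0.0625 and 1.06 ± 0.103 CPM and rose, as did Adgre1 and Fcer1g, which stayed below 1 CPM (these markers were named after their values were seen).

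The 10 fibroblast and endothelial markers summed to 73.6 to 126 CPM in the controls and 67.4 to 78.4 CPM with the drugs. Nearly all of this was Cdh5, at 89.8 ± 29.8 and 70.6 ± 5.43 CPM, which was not called but was lower with no filter (-0.38) and without control replicate 2 (-0.49) or 3 (-0.50), whereas without control replicate 1, its highest library, the log2 fold change was -0.04. Pecam1, the other endothelial marker, stood at 0.470 ± 0.149 and 0.459 ± 0.00938 CPM. Of the 5 tested, 1 reached the cutoff in every library and was not called. Pdgfra, at a log2 fold change of 1.54, and Dcn, with 2 and 65 counts over the groups, were called higher and reached the cutoff in the Folfiri libraries only, while Col1a1, at -1.47, was called lower and reached it in the controls only. In each of these the filter favored the call. Dcn was named after its values were seen. Col1a2, Col3a1, Pdgfrb and Thy1 had at most 2 counts in any library. The part that these cells may have in the rise of the cytokine genes was not tested.

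The pattern of each tested member across the 6 libraries was shared by many genes, since the difference between the groups dominated it. For Csf1, 3092 of 11243 genes with a mean of at least 100 counts had a Pearson correlation above 0.95 with its log2 CPM, and for Il23a 1511 did. The most alike genes were Eps8l2, Casc3 and Ppp2r5d for Tnf, Rbbp6, Dync1li2 and Tmem229b for Il1a, and Cox5b, Rpp25l and Timm23 for Il23a. They were Zfp948, Entpd7 and Ttll3 for Il33, Smn1, Txndc9 and Exosc3 for Csf1, Letmd1, Prkrip1 and Snhg20 for Csf2, and Ccdc32, Nup35 and Ppm1g for Lif. These correlations were between 0.99668 and 0.99995 over 6 libraries, and they describe the same treatment contrast and the same library sizes.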

How the data were processed

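RNA of 6 organoid samples was selected for poly(A) and sequenced. Per the labels and the methods, the authors aligned reads with STAR (version 2.5.2) to GRCm38 with GENCODE annotation and counted them per gene with Rsubread. The deposited values are raw counts per Ensembl gene, and the strand and multimapping settings are not given in the sources used here. Overlap with a gene on the opposite strand was not limited to the genes noted above. It was present, for instance, for Capn2 (1717 exonic bases), Il4ra (571), Il1rap (552), Pim1 (488), Pycard (485), Tlr3 (381) and Junb (173). Groups came from the sample titles. Symbols, positions, lengths and overlaps came from GENCODE vM21, and promoter sequence from RefSeq. The study's methods name a later GENCODE release for the counting, so lengths and overlaps may differ from those behind the counts. edgeR 4.0.16 (R 4.3.3) was run on the counts with its expression filter, TMM scaling, a quasi-likelihood fit of the 2 groups and Benjamini-Hochberg adjustment at 0.05, and was tested on simulated data. SE is the absolute log2 fold change over the square root of F. DESeq2 1.42.0, other scalings and filters, a replicate block and leaving out each library were the alternatives. Total counts ran from 22103591 to 30098210 per library, and intervals and floors cover counting error only. A figure legend of the study calls the replicates biological, while the labels do not say how they were separated, so p-values measure the spread between these samples of 1 line. Named were the 10 members, all receptors and antagonists, up to 3 genes per direction of each other list with the largest change (adjusted p under 0.05, groups apart in CPM, at least 20 counts in the highest library), the 3 most abundant markers of each marker list and the 3 genes most alike to each member (those of Il18 and the altered genes of the line are not reported here). Il12b, Krt20, Vil1, Pecam1, Col1a2, Col3a1, Pdgfrb and Thy1 were named outside this rule. Members and lists were chosen with earlier results of these data known.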

Additional observations from a re-analysis of the deposited data

How the results depend on the processing

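Every tested cytokine gene kept its direction and its call under each alternative in which it was tested. The number called higher was 8, with 7 when CPM above 1 in 3 libraries was required, since Il18 was then not tested, and 9 with no filter or with DESeq2, which added Il6. Genes called in all were 11623, between 10630 and 12742 over the other settings and between 11021 and 12312 without 1 library. Scaling by total counts only moved the median log2 fold change of all genes from 0.02 to 0.30 and the share of calls that were higher from 51.0% to 63.3%. It left 0 antagonists lower, 8 genes of processing and release higher and 0 nucleic acid sensors lower. Without 1 library, 0 to 1 sensors were lower. Of the other family cytokines, 5 were higher with the CPM minimum, and 2 were lower with no filter or DESeq2 and 1 to 2 without 1 library. The replicate numbers did not pair the samples (correlations of deviations of 0.0267, -0.117 and 0.0393), and a fit with the replicate block called 11499 genes and 8 of the cytokine genes. Control counts of 0 to 4 limit the precision for Il6, Il1b, Il18 and Csf2.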
